A study of Mus musculus with 13 samples.

Results

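Potassium channel genes were followed through the oligodendrocyte lineage, and 56 pore-forming or modulatory subunit genes were members of the set, of 21938 protein-coding genes in GENCODE release M21 (GRCm38, mm10; mitochondrial genes left out). They were named as a list of genes, and each was described by the called peaks of 2 histone marks within 2 kb of any of its transcription start sites (TSSs) and by the called peaks of OLIG2 in its body and the 5 kb upstream. All 56 members were found in the annotation. The 3 stages, all untreated, were neural stem cells (NSCs), the progenitor cells of oligodendrocytes (OPCs), and oligodendrocytes that have just formed (NFOs). The NSCs were bought cells of the cortex of embryonic day 14.5 mice, grown in dishes with EGF and FGF; the growth protocol names CD-1 mice, while the strain label of these samples reads C57BL/6. The OPCs and NFOs were taken from C57BL/6 mouse brains at postnatal day 7 by immunopanning, in which cells stick to coated dishes, after depletion on BSL-1 plates, with an antibody against PDGFRα for OPCs and GalC for NFOs. H3K4me3 and H3K27me3 were measured in each stage by ChIP-Seq, the sequencing of DNA precipitated with an antibody, and OLIG2 was measured in OPCs and NFOs. Each cell type and antibody had 1 library, so no value below has an error between animals or cultures, and no difference was tested.

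Potassium channels let potassium ions leave or enter the cell, set the resting potential and end the action potential. Voltage-gated (Kv) channels open on depolarization, inward rectifiers (Kir) hold the membrane near the potassium potential, K2P channels carry a steady leak, and others open with calcium or sodium inside the cell. In the oligodendrocyte lineage, precursors are known for delayed and A-type Kv currents, and maturing cells for Kir currents. H3K4me3 is a mark of active or poised promoters, and H3K27me3 is the mark of Polycomb repression. A promoter with both marks overlapping is called bivalent. OLIG2 is a basic helix-loop-helix factor that is needed to form the lineage.

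A member was K4 only or K27 only where peaks of a single mark lay near its TSSs. It was bivalent where only overlapping peaks of both marks lay there (by 1 bp or more), mixed where more than 1 of these kinds was present, and unmarked where no peak was listed. All listed peaks entered, as many as 33292 (NSC), 18284 (OPC) and 21736 (NFO) for H3K4me3, and 36069, 29417 and 12688 for H3K27me3. The OLIG2 lists held 7384 peaks in OPCs and 16911 in NFOs. The depth behind a peak is unknown. The names of the histone peaks carry the word single in NSCs and paired in the later stages, so widths and fold enrichments in NSCs are not on the same scale as the later stages. The antibody label of each histone sample names the other mark than its title, and titles were followed. With this naming all 8 OPC marker genes, among them Pdgfra and Sox10, were K4 only in OPCs. Of the NFO marker genes, Cnp alone had an H3K4me3 peak in NFOs, while Mog, Mag and Mobp were unmarked in every stage. Others of the NFO marker genes carried H3K27me3 in some stages, so this set does not show that the naming holds in NFOs. Some marker genes of neurons and astrocytes, such as Tubb3 and Slc1a2, were also K4 only in OPCs and NFOs, so the marks do not show purity. Of the 6 microglial marker genes, Csf1r alone had an H3K4me3 peak, in OPCs.

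Promoters of members differed in their content of CpG, the dinucleotide that gathers in CpG islands, and 3 of them are shown because they span the states found. Promoter sequences came from RefSeq (GRCm38.p6), which held 43 of the 56 members. They are the 250 bases before the start site, 5′ to 3′ on the strand of the gene, with each CpG in capitals. Kcnk12, a K2P channel gene, had H3K27me3 in all 3 stages (chr17:87797995-87798244, minus strand, 16 CpG). Kcnj10, the main glial inward rectifier, was K4 only in all stages (chr1:172340960-172341209, plus strand, 17 CpG). Kcnj13, another inward rectifier, was unmarked in all stages (chr1:87394730-87394979, minus strand, 3 CpG).
Kcnk12: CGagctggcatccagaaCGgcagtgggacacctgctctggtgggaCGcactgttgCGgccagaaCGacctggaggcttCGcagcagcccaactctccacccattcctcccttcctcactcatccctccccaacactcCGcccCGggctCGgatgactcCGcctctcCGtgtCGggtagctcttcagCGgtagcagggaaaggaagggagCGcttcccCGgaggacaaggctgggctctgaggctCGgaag
Kcnj10: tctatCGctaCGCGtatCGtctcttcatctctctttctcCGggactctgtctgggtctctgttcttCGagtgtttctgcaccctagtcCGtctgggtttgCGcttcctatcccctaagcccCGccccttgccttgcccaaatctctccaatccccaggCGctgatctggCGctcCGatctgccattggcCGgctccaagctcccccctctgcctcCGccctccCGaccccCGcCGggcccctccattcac
Kcnj13: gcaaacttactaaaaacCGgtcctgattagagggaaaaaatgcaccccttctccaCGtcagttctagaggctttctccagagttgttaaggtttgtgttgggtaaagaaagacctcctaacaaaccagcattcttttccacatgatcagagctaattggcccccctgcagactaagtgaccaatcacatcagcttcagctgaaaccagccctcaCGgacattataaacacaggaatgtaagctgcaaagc

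An H3K4me3 peak lay near a TSS of 49 (NSC), 47 (OPC) and 28 (NFO) of the 56 members, where 64.3%, 60.8% and 43.6% of all protein-coding genes had one. In NSCs and OPCs the members carried the mark more often than the background, and in NFOs 28 of 56 did, closer to the background share. That NFO comparison turned with other settings, with 10 of 56 members against 21.9% of protein-coding genes at a fold enrichment above 5 and 22 of 56 against 40.1% with 1 TSS per gene. An H3K27me3 peak lay near a TSS of 15 (NSC), 23 (OPC) and 20 (NFO) members, against 15.1%, 16.4% and 9.56% of protein-coding genes. The members therefore exceeded the background share for H3K27me3 in all 3 stages. Over all stages 29 members had an H3K27me3 peak at least once (25.5% of protein-coding genes) and 9 had it in every stage (4.49%). Membership was decided with earlier results of these lists known, so these shares describe the set and were not tested.

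By state, 35 (NSC), 27 (OPC) and 19 (NFO) members were K4 only (52.2%, 49.5% and 38.9% of protein-coding genes). Bivalent members numbered 7, 6 and 3 (5.30%, 2.99% and 1.56%), and mixed members 7, 14 and 8 (7.09%, 8.51% and 3.47%). Only 1 member was K27 only in NSCs, then 3 in OPCs and 9 in NFOs (3.07%, 4.93% and 4.53%). Unmarked members numbered 6, 6 and 17 (32.4%, 34.0% and 51.5%). The K4 only count was thus highest in NSCs, the mixed count in OPCs, and the K27 only and unmarked counts in NFOs. In NFOs, Kcns3 was bivalent and Kcng3 mixed through an H3K4me3 peak that overlapped their H3K27me3 peak but lay outside the window, 2060 bp and 3282 bp from the nearest TSS.

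**Figure D1:**
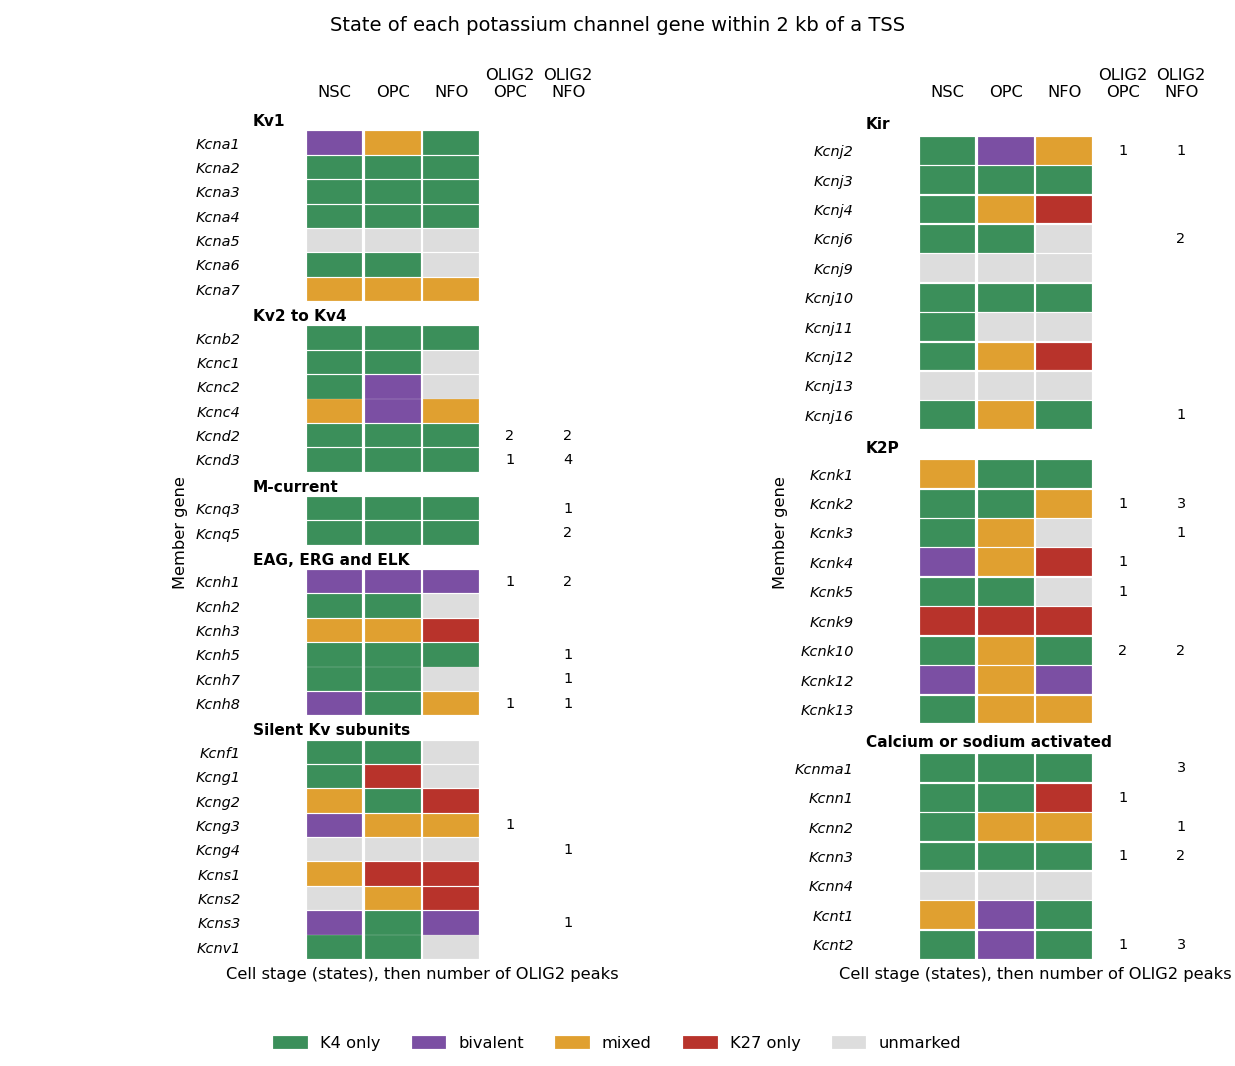
Each row is a member, grouped by channel family, and each colored cell is its state within 2 kb of a TSS in NSCs, OPCs and NFOs; the 2 columns of figures count its OLIG2 peaks in OPCs and NFOs. Kcnh1 is bivalent and Kcnk9 K27 only throughout, and 13 members are K4 only throughout. No Kv1 gene has an OLIG2 peak, and all Kv1 genes are shorter than 100 kb.

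Among single members, 13 were K4 only in all 3 stages (29.9% of protein-coding genes). They were Kcna2, Kcna3, Kcna4, Kcnb2, Kcnd2, Kcnd3, Kcnh5, Kcnj3, Kcnj10, Kcnma1, Kcnn3, Kcnq3 and Kcnq5. Another 5 members were unmarked in all stages (28.3%), and these were Kcna5, Kcng4, Kcnj9, Kcnj13 and Kcnn4. The 9 members with an H3K27me3 peak in every stage were Kcna7, Kcnc4, Kcng3, Kcnh1, Kcnh3, Kcnk4, Kcnk9, Kcnk12 and Kcns1. K2P genes, one of the larger families of the set, made up 3 of these 9. With the filter of the Methods (a false discovery rate, FDR, below 0.05 and a fold enrichment above 3.5), Kcna2, Kcnj3 and Kcnq3 of the first group had no H3K4me3 peak in NFOs, and Kcnk9 of the last group had no H3K27me3 peak in NSCs. Other H3K4me3 peaks below that filter were those of Kcnj6 and Kcns1 in NSCs and Kcnc4 in NFOs. For H3K27me3 they were those of Kcna1, Kcng2 and Kcnt1 in NSCs, of Kcnc2, Kcnj12, Kcnk3 and Kcnn2 in OPCs, and of Kcng2, Kcnh8, Kcnj12, Kcnn1, Kcns2 and Kcns3 in NFOs.

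The Kv1 family encodes delayed rectifiers and low-threshold channels of axons and glia, and 6 of its 7 members had an H3K4me3 peak in NSCs and OPCs and 5 in NFOs. Kcna1, whose channel lies beside the nodes of myelinated axons, was bivalent in NSCs, mixed in OPCs and K4 only in NFOs. Its H3K27me3 peak in NSCs was 1410 bp wide with a fold enrichment of 3.20, and the one in OPCs was 178 bp wide at 3.79. The NSC peak was below the filter, and with the filter Kcna1 was K4 only in NSCs. Its H3K4me3 peaks reached 4.01, 5.03 and 4.45 in order of stage. Kcna2, the partner of Kcna1 in axons, had a single H3K4me3 peak in each stage, at 9.02, 6.26 and 3.47. The NFO peak of Kcna2 was weaker than its OPC peak and did not pass the filter of the Methods.

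Kcna3, a delayed rectifier known in OPCs and T cells, had H3K4me3 at 6.31, 6.46 and 3.83. Its OPC peak, 5895 bp, was the widest H3K4me3 peak of any member in that stage, against 1706 bp before and 613 bp after it. Kcna4, an A-type channel, had values of 5.40, 6.64 and 4.14. Kcna6, which is also a delayed rectifier, had H3K4me3 at 6.39 in NSCs and 5.83 in OPCs and none listed in NFOs. Kcna7, known from muscle, was mixed in every stage, with H3K27me3 at 6.81, 10.0 and 7.16, and the last was the highest H3K27me3 value of any member in NFOs. That NFO peak started at base 45407155, as did an H3K4me3 peak in OPCs and one in NFOs, and the cause of the shared edge was not tested. Kcna5 had no peak of either mark.

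The Kv2 to Kv4 members held 6 genes, and all had an H3K4me3 peak in NSCs and OPCs. Kcnb2 (a delayed rectifier) was K4 only throughout, as were Kcnd2 and Kcnd3, which encode A-type channels. Kcnc1 and Kcnc2, of the fast Kv3 channels, were unmarked in NFOs. Kcnc1 had the widest H3K4me3 peak of any member in NSCs, 7040 bp at a fold enrichment of 7.84, and one of 1148 bp in OPCs. Kcnc2 was K4 only in NSCs and bivalent in OPCs through an H3K27me3 peak of 186 bp at 3.13, below the filter of the Methods. Kcnc4, an A-type Kv3 channel, was mixed, bivalent and mixed in order of stage, with H3K27me3 at 4.80, 8.0 and 6.19 and peaks of up to 3631 bp in OPCs.

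The silent Kv subunits make no channel alone and change the currents of the Kv2 family. Of these 9 members, 7, 6 and 0 had an H3K4me3 peak in order of stage, and H3K27me3 lay at 4, 4 and 5 of them. Kcnf1 and Kcnv1 were K4 only in NSCs and OPCs and unmarked in NFOs. Kcng1 was K4 only in NSCs, K27 only in OPCs and unmarked in NFOs. Its OPC peaks of H3K27me3 were 945 bp wide at 2.97 and 236 bp wide at 6.93. Kcng2 was mixed, K4 only and K27 only, and its H3K27me3 peaks in NSCs (3.11) and NFOs (3.28) were both below the filter. Kcng3 was bivalent in NSCs and mixed in OPCs and NFOs, with H3K27me3 at 5.33 (357 bp), 11.9 (229 bp) and 5.35 (2566 bp). The narrow NSC and OPC peaks overlapped, but the wide NFO peak lay elsewhere. At the narrow site the NFO peak reached 3.80 (204 bp). The narrow peaks started at base 83633874 in OPCs and 83633875 in NFOs, and the cause was not tested.

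Kcns1 was mixed in NSCs and K27 only in OPCs and NFOs, and its widest H3K27me3 peaks were 2448, 2445 and 2464 bp wide. These were not all at the same place. The NSC peak (chr2:164167368-164169815, 3.12, below the filter) overlapped neither later peak. The OPC peak (chr2:164170044-164172488) and the NFO peak (chr2:164170486-164172949) overlapped each other. Kcns2 was unmarked in NSCs, mixed in OPCs and K27 only in NFOs, where the peak was 262 bp wide at 3.28. Kcns3 was bivalent in NSCs, K4 only in OPCs and bivalent in NFOs. Its H3K27me3 peak was 2720 bp wide at 4.05 in NSCs and 774 bp wide at 3.27 in NFOs.

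The EAG, ERG and ELK members (6 genes) all had an H3K4me3 peak in NSCs and OPCs, and 3 had one in NFOs. Kcnh1, which encodes an EAG channel, was the single member that was bivalent in all 3 stages. The H3K4me3 enrichment there was 9.89 (2041 bp) among NSCs, 33.0 (1055 bp) among OPCs and 24.2 (1155 bp) among NFOs, and the later values were the highest of any member in those stages. The H3K27me3 peak reached 4.73 (2031 bp), 9.84 (2420 bp) and 5.04 (1116 bp). In NSCs and OPCs it lay over the TSS at base 192190774. The NFO peak (chr1:192190942-192192057) began downstream of that TSS and overlapped the end of the NFO H3K4me3 peak (chr1:192189982-192191136). That overlap was shorter than 200 bp, so Kcnh1 was not bivalent in NFOs under the alternative of at least 200 bp. In OPCs the H3K4me3 peak (chr1:192190084-192191138) lay wholly inside the H3K27me3 peak (chr1:192189297-192191716).

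Kcnh3, a neuronal ELK channel, had the widest H3K27me3 peak of any member in NSCs (7986 bp at 3.55) and in NFOs (3381 bp at 4.36), and one of 3076 bp at 3.89 in OPCs. It was mixed in NSCs and OPCs and K27 only in NFOs. Kcnh8, another ELK gene, was bivalent in NSCs, K4 only in OPCs and mixed in NFOs, and its NFO peak of H3K27me3 (3.36) was below the filter. Kcnh2 and Kcnh7, which encode ERG channels, were K4 only in NSCs and OPCs and unmarked in NFOs, and Kcnh5 was K4 only throughout. Kcnq3 and Kcnq5, whose channels carry the M-current that restrains repeated firing, were K4 only throughout, at 5.44, 5.05 and 3.25 for Kcnq3 and 8.82, 4.50 and 4.67 for Kcnq5. The NFO peak of Kcnq3 was 188 bp wide and did not pass the filter.

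Among the 10 Kir members, H3K4me3 lay at 8, 7 and 4 and H3K27me3 at 0, 4 and 3 of them in NSCs, OPCs and NFOs. No Kir gene thus had an H3K27me3 peak in NSCs. Kcnj10, which buffers potassium in glia, had 1 H3K4me3 peak in each stage with a fold enrichment of 5.63 (3121 bp), 5.55 (2048 bp) and 3.62 (699 bp), and no H3K27me3 peak. Kcnj16, which joins with the product of Kcnj10 in glial channels, had H3K4me3 at 7.49, 8.35 and 9.41. It was K4 only in NSCs and NFOs and mixed in OPCs, through an H3K27me3 peak of 198 bp at 3.64 that lay at another TSS than its H3K4me3 peak.

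Kcnj2, a strong inward rectifier, was K4 only in NSCs, bivalent in OPCs and mixed in NFOs. Its H3K27me3 peaks in the later stages reached 3.96 (443 bp, OPC) and 4.17 (486 bp, NFO), and its H3K4me3 peaks reached 11.5, 8.95 and 15.9. Kcnj4 and Kcnj12, also strong rectifiers, were K4 only in NSCs, mixed in OPCs and K27 only in NFOs. For Kcnj4 the H3K27me3 peaks reached 3.54 and 3.62, and for Kcnj12 they reached 3.04 and 3.41, with the latter pair below the filter. Kcnj3 and Kcnj6 encode G protein-gated subunits; Kcnj3 was K4 only throughout (4.75, 4.67 and 3.25), and Kcnj6 was K4 only in NSCs and OPCs and unmarked in NFOs. Kcnj11, the pore of ATP-sensitive channels, had a 162 bp H3K4me3 peak in NSCs and nothing later.

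Of the 9 K2P members, H3K4me3 lay at 8, 8 and 5 and H3K27me3 at 4, 6 and 5 in order of stage. Kcnk12, a silent member of the family, was bivalent in NSCs, mixed in OPCs and bivalent in NFOs, and its promoter is shown above. Its H3K27me3 reached 7.99, 15.7 and 6.85, and the OPC value was the highest of any member in any stage, on a 327 bp peak. That narrow peak ended at base 87799185, and an H3K4me3 peak in OPCs and one in NFOs both ended at base 87799184. Why peaks of different libraries had nearly the same edge was not tested. Kcnk4, a mechanosensitive channel, had the highest H3K27me3 value in NSCs, 9.57 on a 448 bp peak, and the widest H3K27me3 peak of any member in OPCs, 3863 bp at 4.04. It was bivalent in NSCs, mixed in OPCs and K27 only in NFOs, and its widest H3K27me3 peak in OPCs and in NFOs (2388 bp) also lay near the TSS of Catsperz, so that peak cannot be assigned to Kcnk4 alone. Kcnk9, an acid-sensitive channel of neurons, was K27 only in all stages at 3.25, 3.60 and 4.35, the first below the filter.

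Kcnk1, a leak channel also known in astrocytes, was mixed in NSCs and K4 only in OPCs and NFOs. Its H3K27me3 peak in NSCs reached 4.0 over 818 bp, and its H3K4me3 peaks reached 4.03, 4.77 and 4.49. Kcnk2, a mechanosensitive channel, was K4 only in NSCs and OPCs and mixed in NFOs, through an H3K27me3 peak of 188 bp at 3.65. Kcnk10, its close relative, was K4 only in NSCs, mixed in OPCs and K4 only in NFOs. Kcnk13 was K4 only, then mixed in both later stages with H3K27me3 at 3.66 (197 bp) and 3.52 (387 bp). Kcnk3, an acid-sensitive channel, was K4 only, mixed and unmarked, and Kcnk5, opened by alkaline conditions, was K4 only, K4 only and unmarked.

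The 7 members opened by calcium or sodium had H3K4me3 at 6, 6 and 5 genes and H3K27me3 at 1, 3 and 2. Kcnma1, the BK channel, was K4 only throughout at 8.03, 8.25 and 3.87, and so was Kcnn3, an SK channel, at 7.27, 6.41 and 4.32. Kcnn1 was K4 only in NSCs and OPCs and K27 only in NFOs (3.46, below the filter). Kcnn2 was K4 only in NSCs and mixed later, with H3K27me3 at 3.04 in OPCs and 4.24 in NFOs. The sodium-activated pair had the same state in OPCs and NFOs. Kcnt1 was mixed and Kcnt2 K4 only in NSCs, both were bivalent in OPCs, and both were K4 only in NFOs. With the filter both were K4 only in NSCs as well. Kcnt1 had H3K27me3 at 3.18 (1459 bp) in NSCs and 5.36 (1357 bp) in OPCs, and Kcnt2 had it in OPCs only, at 5.95 on a 219 bp peak. This Kcnt2 peak ended at base 140247073, as did an H3K4me3 peak in OPCs and one in NFOs, and the cause was not tested. Kcnt2 had the highest H3K4me3 value of any member in NSCs, 13.9, with 13.7 and 16.8 later.

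**Figure D2:**
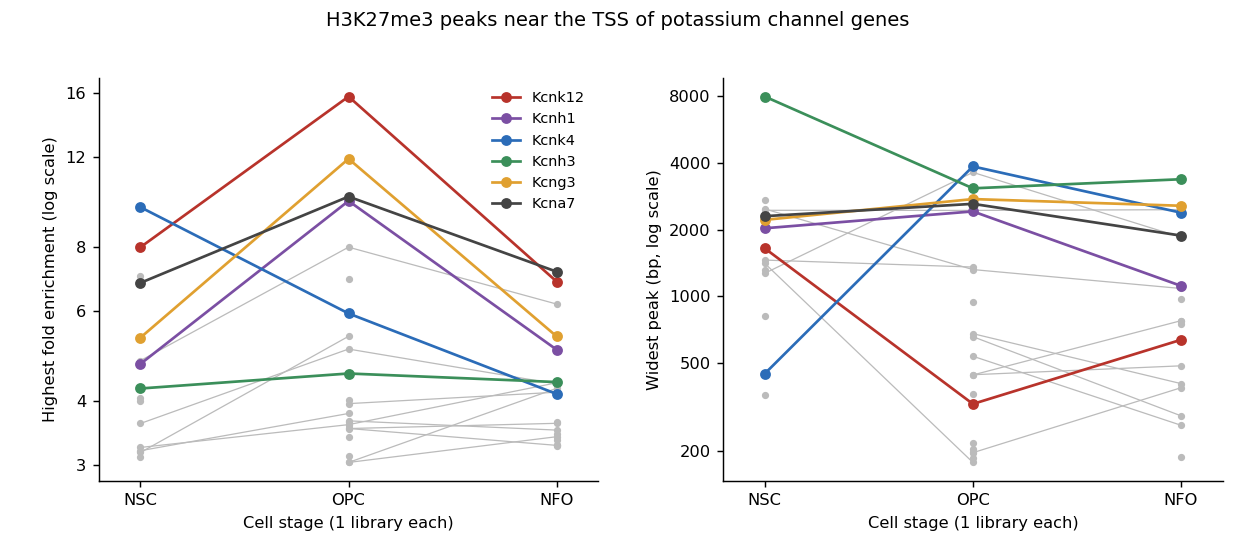
The left panel shows the highest fold enrichment and the right panel the widest H3K27me3 peak near a TSS of each member by stage, on log axes, from 1 library a stage; lines join neighboring stages where both have a peak, and gray points are the other members. Kcnk12 stands highest in OPCs at 15.7 while its widest peak there is 327 bp, and Kcnh3 is widest in NSCs at 7986 bp.

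The widest H3K27me3 peaks in NSCs were those of Kcnh3, Kcns3 (2720 bp), Kcnk9 (2482 bp), Kcns1 (2448 bp) and Kcna7 (2303 bp). In OPCs they were those of Kcnk4, Kcnc4 (3631 bp), Kcnh3 (3076 bp), Kcng3 (2751 bp) and Kcna7 (2618 bp). In NFOs the order was Kcnh3, Kcng3 (2566 bp), Kcns1 (2464 bp), Kcnk4 (2388 bp) and Kcna7 (1882 bp). Kcnh3 and Kcna7 were thus among the widest in every stage. Across members with the mark, the median of the widest peak was 1648, 658 and 873.5 bp in order of stage, against 687.5, 665 and 891.5 bp over all protein-coding genes with the mark. The median of the highest H3K27me3 fold enrichment was 4.24, 4.02 and 4.15, against 3.79, 4.66 and 4.20. For H3K4me3 the median of the highest fold enrichment was 5.69, 5.72 and 4.56 in members and 8.44, 6.50 and 5.02 in all protein-coding genes with the mark, so members with H3K4me3 had lower values than the typical marked gene, most of all in NSCs.

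From NSCs to OPCs the state differed for 24 members (23.3% of protein-coding genes). An H3K27me3 peak was listed in OPCs but not in NSCs for 12 members (9.18%), namely Kcnc2, Kcng1, Kcnj2, Kcnj4, Kcnj12, Kcnj16, Kcnk3, Kcnk10, Kcnk13, Kcnn2, Kcns2 and Kcnt2. Of these, 4 were Kir genes and 3 were K2P genes, which are among the largest families of the set, so the counts show no concentration by themselves. The OPC peaks of Kcnc2, Kcnj12, Kcnk3 and Kcnn2 were below the filter of the Methods. The opposite, H3K27me3 in NSCs and not in OPCs, held for Kcng2, Kcnh8, Kcnk1 and Kcns3, which are 4 members (7.90%). Among genes with the mark in NSCs these were 4 of 15 members, beside 1733 of 3312 protein-coding genes. H3K4me3 was listed in OPCs but not in NSCs at Kcns2 alone (1 member, 1.28%), and in NSCs but not in OPCs at Kcng1, Kcnj11 and Kcns1 (3 members, 4.83%). Of the 35 members that were K4 only in NSCs, 23 were K4 only in OPCs too, 3 were bivalent, 7 mixed, 1 K27 only and 1 unmarked. Of the protein-coding genes that were K4 only in NSCs, 82.4% were K4 only in OPCs.

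From OPCs to NFOs the state differed for 29 members (28.3%). An H3K4me3 peak was listed in OPCs and not in NFOs for 19 members (18.6%), and 0 members showed the opposite (1.42%). These 19 were Kcna6, Kcnc1, Kcnc2, Kcnf1, Kcng2, Kcng3, Kcnh2, Kcnh3, Kcnh7, Kcnj4, Kcnj6, Kcnj12, Kcnk3, Kcnk4, Kcnk5, Kcnn1, Kcns2, Kcns3 and Kcnv1. H3K27me3 was present in OPCs and absent in NFOs at 8 members (8.24%), which were Kcna1, Kcnc2, Kcng1, Kcnj16, Kcnk3, Kcnk10, Kcnt1 and Kcnt2. Among genes with the mark in OPCs these were 8 of 23 members, beside 1807 of 3593 protein-coding genes. It was present in NFOs and absent in OPCs at 5 members (1.42%), which were Kcng2, Kcnh8, Kcnk2, Kcnn1 and Kcns3, and 4 of these peaks were below the filter of the Methods. Of the 27 members that were K4 only in OPCs, 14 were K4 only in NFOs too and 8 were unmarked. For protein-coding genes that were K4 only in OPCs these shares were 69.3% and 28.8%.

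States were also followed across all 3 stages. H3K27me3 in NSCs with K4 only in NFOs was found for Kcna1, Kcnk1 and Kcnt1, 3 members (5.44% of protein-coding genes), a share near the background. With the filter of the Methods, Kcnk1 and also Kcnh8 had this pattern, and Kcna1 and Kcnt1 did not. The opposite order, no H3K27me3 in NSCs and an H3K27me3 peak in both OPCs and NFOs, was found for 6 members (3.65%), namely Kcnj2, Kcnj4, Kcnj12, Kcnk13, Kcnn2 and Kcns2. Of those 6, 3 were inward rectifiers, which are the largest family of the set. The H3K27me3 values behind this pattern lay between 3.04 and 4.24, and with the filter of the Methods, Kcnj2, Kcnj4 and Kcnk13 of them, and also Kcnk9, had this pattern.

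**Figure D3:**
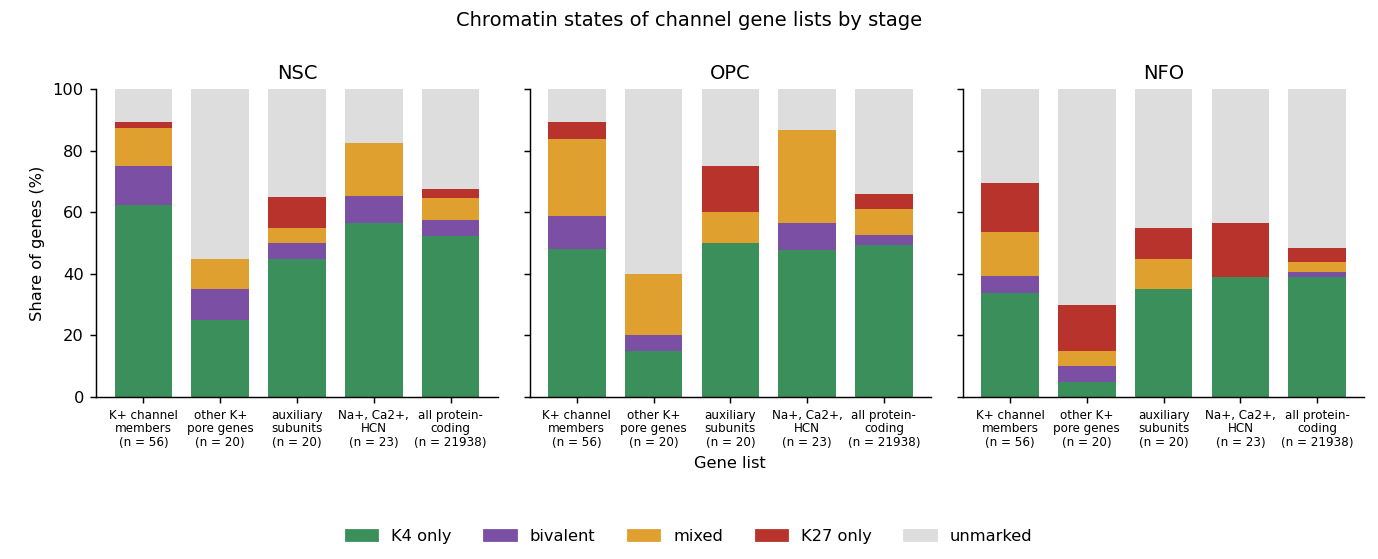
Stacked bars give the share of genes in each state, by stage, for the 56 members, 20 other potassium channel pore genes, 20 auxiliary subunits, 23 sodium, calcium and HCN channel genes and 21938 protein-coding genes. Unmarked genes are a small part of the members in NSCs and OPCs (6 of 56 in each) and a larger part in NFOs (17 of 56).

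Other ion channel lists were read the same way. Of 20 potassium channel pore genes that are not members, H3K4me3 lay at 9, 8 and 3 in order of stage, H3K27me3 at 4, 5 and 5, and 9 were unmarked in all stages. Of 23 sodium, calcium and HCN channel genes, H3K4me3 lay at 19, 20 and 9 and H3K27me3 at 6, 9 and 4, and 12 had H3K27me3 in at least 1 stage. The members (29 of 56) and the sodium, calcium and HCN genes (12 of 23) thus had H3K27me3 in at least 1 stage at similar shares. In the sodium, calcium and HCN list H3K4me3 was listed in OPCs and not in NFOs at 11 of 23 genes, beside 19 of 56 members.

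OLIG2 peaks lay in the body or the 5 kb upstream of 13 members in OPCs (16.5% of protein-coding genes) and 20 members in NFOs (28.2%). At least 1 was found at 24 members (34.9%), and in both cell types at 9 members (9.79%), which were Kcnd2, Kcnd3, Kcnh1, Kcnh8, Kcnj2, Kcnk2, Kcnk10, Kcnn3 and Kcnt2. With the filter of the Methods for OLIG2 (FDR below 0.05, fold enrichment above 5), 12 members had a peak in OPCs, 18 in NFOs and 7 in both. The protein-coding shares were then 15%, 25% and 8.27%. Kcnd3 in OPCs and Kcnh8 and Kcnk3 in NFOs had no peak that passed. Also below that filter were an NFO peak each of Kcnq5 (2.36), Kcnk2 (3.34), Kcnma1 (3.67), Kcnj6 (4.23) and Kcnt2 (4.66). These members kept another NFO peak. With OPC peaks alone were Kcng3, Kcnk4, Kcnk5 and Kcnn1, and with NFO peaks alone Kcng4, Kcnh5, Kcnh7, Kcnj6, Kcnj16, Kcnk3, Kcnma1, Kcnn2, Kcnq3, Kcnq5 and Kcns3. No Kv1 member had one, but all of them are shorter than 100 kb. Of protein-coding genes up to that length, 12.4% had a peak in OPCs and 22.4% in NFOs, so few are expected in so small a family. In NFOs the members' share lay above the background, and it lay below it with OLIG2 peaks above a fold enrichment of 10 (6 of 56 members against 12.6%) and within 5 kb of a TSS alone (9 of 56 against 17.4%). Members are long genes, with a median length of 42.0 kb against 17.4 kb for all protein-coding genes, so counts were also read by length. Of the 18 members over 100 kb, 8 had an OLIG2 peak in OPCs and 15 in NFOs (48.6% and 73.4% of protein-coding genes of that size), and of the 38 shorter members 5 had one in OPCs and 5 in NFOs (12.4% and 22.4%). Per 100 kb the members held 0.202 peaks in OPCs and 0.471 in NFOs, less than the 0.402 and 0.838 of all protein-coding genes. Members over 100 kb held 0.161 and 0.483 peaks per 100 kb, against 0.313 and 0.672.

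The members held 15 OLIG2 peaks in OPCs, 10 with the summit in an intron and 5 upstream, and 35 in NFOs, 26 in introns, 6 upstream and 3 in exons. The strongest in OPCs was at Kcnk5 (fold enrichment 19.8, intron), followed by Kcnd2 (15.9, intron) and Kcng3 (13.3, intron). The strongest in NFOs was at Kcnd3 (23.2, upstream), closely followed by Kcnh1 (23.0, in an exon). Kcnd2 had 2 intronic peaks in each cell type, at 7.69 and 15.9 in OPCs and 15.04 and 14.52 in NFOs, none of them at the same place. Kcnk2 had 1 in OPCs (11.3) and 3 in NFOs (up to 6.55), Kcnn3 had 1 (10.4) and 2 (up to 9.34), and Kcnh8 had 1 (6.80) and 1 (4.45). Kcnj2 had an OPC peak with its summit at -811 bp from the TSS (10.9) and an NFO peak in an exon 7711 bp downstream (7.32). Kcnt2 had an OPC peak at -812 bp (9.49) and 3 NFO peaks, the nearest at -305 bp (7.69). Kcnj16 had a single peak, in NFOs, at -146 bp (7.69).

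**Figure D4:**
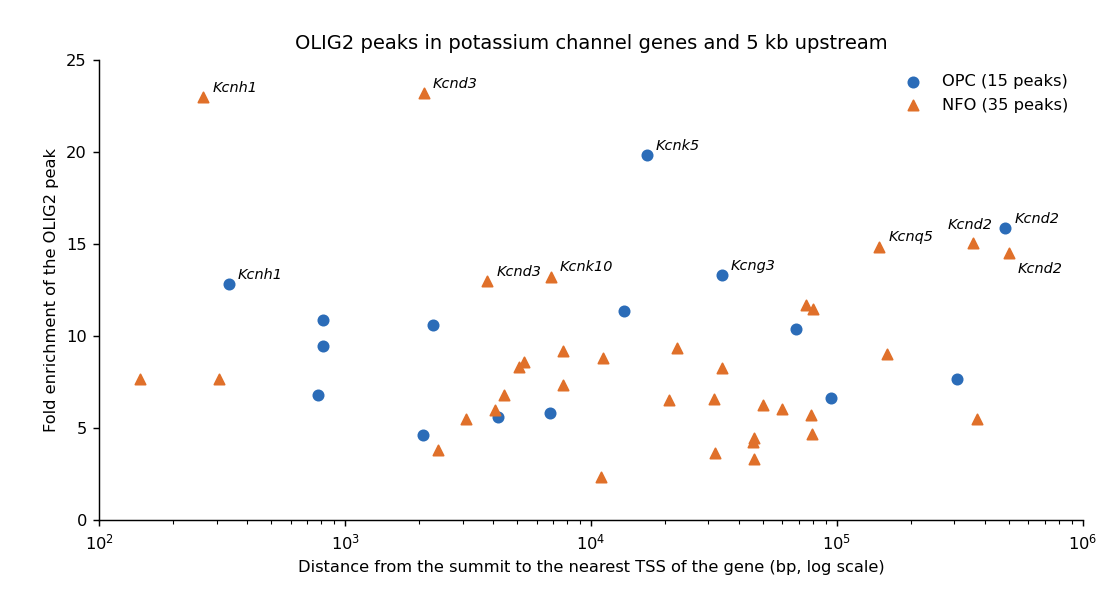
Each point is an OLIG2 peak of a member, with the distance of its summit from the nearest TSS of that gene on a log axis and its fold enrichment; circles are OPCs and triangles NFOs, and peaks above 12 are named. Only Kcnh1 combines a summit near the TSS with a fold enrichment above 12 in both cell types.

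In 3 members the OPC and NFO peaks overlapped. At Kcnh1 they shared 162 bp, with summits 335 bp (OPC) and 264 bp (NFO) downstream of the TSS and fold enrichments of 12.8 and 23.0. At Kcnd3 they shared 219 bp, with summits at -2073 bp and -2087 bp from the TSS and values of 4.64 and 23.2, and the OPC peak was below the filter of the Methods for OLIG2 (a fold enrichment above 5). At Kcnk10 they shared 223 bp in an intron, at 5.80 and 13.2. In all 3 the NFO value was the higher. The shared stretches of Kcnd3 (chr3:105450142-105450360) and Kcnk10 (chr12:98525122-98525344) are shown on the plus strand of GRCm38 as the sites bound in both cell types, with the letters CANNTG, the E-box read by basic helix-loop-helix factors, in capitals. They hold 2 and 3 such matches. CANNTG reads the same way on both strands and was found in 11 of the 15 OPC peaks (70.4% of all OPC peaks) and 28 of the 35 NFO peaks (69.3% of all NFO peaks). The form CAGATG or CATCTG (each the other strand of the other) was in 3 of 15 and 5 of 35 (18.9% and 17.4%), CAGCTG in 2 and 7 (13.6% and 10.1%), and CATATG in 1 and 3 (6.20% and 6.51%).
Kcnd3: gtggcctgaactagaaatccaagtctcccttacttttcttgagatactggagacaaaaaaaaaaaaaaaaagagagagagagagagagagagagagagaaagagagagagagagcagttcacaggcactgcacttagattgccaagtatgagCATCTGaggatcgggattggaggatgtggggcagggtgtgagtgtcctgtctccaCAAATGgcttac
Kcnk10: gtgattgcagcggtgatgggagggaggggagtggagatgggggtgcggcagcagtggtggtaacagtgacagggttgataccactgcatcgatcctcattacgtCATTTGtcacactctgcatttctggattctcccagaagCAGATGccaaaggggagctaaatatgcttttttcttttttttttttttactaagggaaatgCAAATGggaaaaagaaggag

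OLIG2 peaks of members were set beside the marks of the same stage. In OPCs 4 of the 15 overlapped an H3K4me3 peak (12.6% of all OPC OLIG2 peaks), at Kcnh1, Kcnh8, Kcnj2 and Kcnt2, and 3 overlapped an H3K27me3 peak (10.5%), at Kcnh1, Kcnk4 and Kcnk5. In NFOs 5 of the 35 overlapped H3K4me3 (8.23%), at Kcnd3 (2 peaks), Kcnh1, Kcnk3 and Kcnt2, and 2 overlapped H3K27me3 (2.44%), at Kcnh1 and Kcnj6. The H3K4me3 peaks overlapped at Kcnk3 (fold enrichment 2.52) and at the intronic OLIG2 peak of Kcnd3 (2.46) were below the filter of the Methods. So were the H3K27me3 peaks overlapped at Kcnj6 in NFOs (2.35) and at Kcnk5 in OPCs (2.84). The OLIG2 peak of Kcnk3 (3.80) was itself below the filter for OLIG2. Kcnh1 was the single member where OLIG2 lay on both marks, in both cell types.

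OLIG2 peaks within 2 kb of a TSS were found at 5 members in OPCs (6.14% of protein-coding genes), Kcnd3, Kcnh1, Kcnh8, Kcnj2 and Kcnt2, and at 4 in NFOs (9.72%), Kcnd3, Kcnh1, Kcnj16 and Kcnt2. H3K4me3 was compared between the 5 members with such OPC peaks and the rest, a split chosen after the values were seen. Their median highest H3K4me3 fold enrichment was 11.1, 8.95 and 15.9 in order of stage, and that of the other members with H3K4me3 was 5.53, 5.43 and 4.32. In NFOs, Kcnh1 (24.2), Kcnt2 (16.8), Kcnj2 (15.9) and Kcnh8 (12.8) had the highest H3K4me3 of all members. Over all protein-coding genes with H3K4me3 the same split gave 10.1 against 8.31 in NSCs, 7.73 against 6.39 in OPCs and 8.87 against 4.83 in NFOs, in the same direction. The H3K4me3 peak of Kcnj2 in NFOs that gave 15.9 was 308 bp wide (chr11:111065165-111065472) and covered the whole OPC OLIG2 peak (chr11:111065238-111065467).

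RNA bound to OLIG2 was read in the RIP-Seq lists, where RNA is precipitated with an antibody against OLIG2 or with IgG. The labels place these 2 libraries in NFOs, while the study's Methods describe RIP-Seq in NSCs, so the cell type is not certain. The title of the library called IgG here reads input, while the Methods name IgG as the control. The OLIG2 list held 613 genes and the IgG list 618. Of the 21938 protein-coding genes, 555 were in the OLIG2 list and 560 in the IgG list, so few members would be listed at that share. Kcnh1 was the single member with a listed site, 1 of 56. It had 2 positions, both in exons and each listed under 2 transcripts, with 6 and 5 tags, and 0 in the IgG list. The RPKM of its transcripts was 0.000255, far below the minimum of 1 in the Methods, so no member had a site after that filter. The lists cover few genes, and a gene without a site was not shown to be unbound.

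CpG content was compared with the marks, since the rule did not use sequence. The ratio of observed to expected CpG from 250 bases before to 50 after the start of the gene record had a median of 0.548 over the 56 members and 0.525 over all protein-coding genes. The 22 members with H3K4me3 and never H3K27me3 had a median of 0.672, the 29 with H3K27me3 in any stage 0.557, and the 5 without a mark 0.226. Protein-coding genes gave 0.742, 0.577 and 0.160 for the same classes, which is the same order. The unmarked members ranged from 0.150 to 0.322 and overlapped the low end of both other classes, where Kcnf1 (0.145), Kcna2 (0.154) and Kcnma1 (0.175) carried H3K4me3. The highest were Kcnh2 (1.12), Kcnj6 (1.05) and Kcng3 (0.991). Marks counted at any TSS, while the ratio was read at the start of the gene record alone. The H3K4me3 peaks of Kcnma1 lay at another TSS than that start, so its ratio is not that of the marked promoter.

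**Figure D5:**
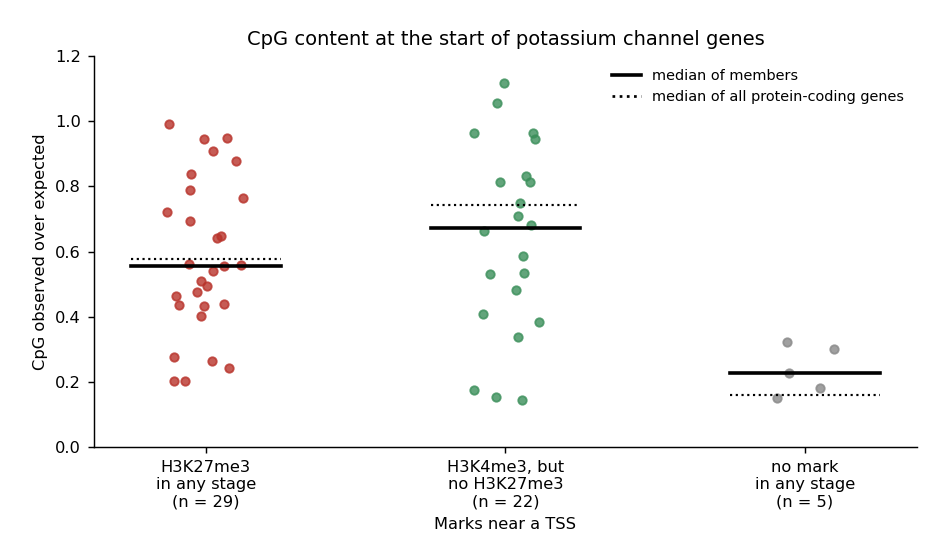
Points are the ratio of observed to expected CpG at the start of each member, by the marks found near its TSSs in any stage; solid lines are medians of members and dotted lines medians of all protein-coding genes of that class. The 5 unmarked members lie between 0.150 and 0.322, members with H3K27me3 between 0.204 and 0.991, and the rest between 0.145 and 1.12.

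Several members are neighbors, and states were read across each pair within 200 kb. Kcnj9 and Kcnj10 (chromosome 1, 11891 bp apart) differed in every stage, with Kcnj9 unmarked and Kcnj10 K4 only. Kcnj16 and Kcnj2 (chromosome 11, 38195 bp apart) were both K4 only in NSCs and both had H3K27me3 in OPCs, and in NFOs only Kcnj2 did. Kcna3 and Kcna2 (chromosome 3, 63075 bp apart) were K4 only in all stages. On chromosome 6, Kcna5 was unmarked beside Kcna1 (104984 bp) in each stage, and Kcna1 and Kcna6 (61944 bp) shared no state in any stage. With the filter of the Methods, Kcna1 and Kcna6 were both K4 only in NSCs.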

How the data were processed

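H3K4me3 and H3K27me3 (6 libraries), OLIG2 (2) and RIP-Seq (2) lists were used, and the 3 input libraries were not. Per the labels and the Methods, the authors aligned reads to mm10 with Bowtie2, called broad histone peaks with MACS2 and OLIG2 peaks with SPP in the ENCODE pipeline, and removed blacklisted regions. Versions and depth are not given in the sources used here. The deposited fold enrichment is a ratio of ChIP over control, and the deposited −log10 values give the FDR. The RIP lists hold tag counts, RPKM values and p-values as the authors deposited them. No column of per-sample values was left unmapped.

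Peaks were intersected with GENCODE M21 in Python 3.11.15 (NumPy 2.4.6, pandas 2.3.3, pysam 0.24.0, Matplotlib 3.10.9). All listed peaks were used; the filter of the Methods (FDR below 0.05 and fold enrichment above 3.5, or above 5 for OLIG2) was an alternative, as were stricter peaks, other windows, 1 TSS per gene, wider overlaps and wider H3K27me3 peaks. A state was assigned to each gene, and counts of members were set beside those of all 21938 protein-coding genes. With 1 library per condition there was no test, no p-value and no interval. The assignment was checked on simulated peaks, where the states of 2000 of 2000 genes were recovered in each stage. Groups followed the sample titles. The members and lists were chosen with earlier results of these data known. Every member was named with its state, and peak values were given for Kcnj10, Kcnj16, Kcnk1, Kcnj2 and Kcna1 to Kcna6, for the widest and strongest peaks, for members with OLIG2 peaks, and for those with the listed patterns across stages. Other values were added after they were seen. 1 marker gene is not reported here.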

Additional observations from a re-analysis of the deposited data

How the results depend on the processing

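No paired analysis was possible because each condition had 1 library, and for the same reason no replicate could be left out. Of 69 counts under alternative settings, 51 were within 1.5 times the reported count and 18 were not. With a fold enrichment above 5, H3K27me3 lay at 5 (NSC), 10 (OPC) and 5 (NFO) of 56 members (2.43%, 7.28% and 2.6% of protein-coding genes), H3K4me3 at 10 members in NFOs (21.9%, now above the members' share), and 1 member was bivalent in NFOs (0.934%). With H3K27me3 peaks of at least 1 kb, 9 members had the mark in OPCs and 9 in NFOs (5.4% and 4.37%). With an overlap of at least 200 bp between marks, 1 member was bivalent in NFOs (0.975%), and it was not Kcnh1. When any bivalent domain counted, whatever the other peaks, the bivalent members were 12 (NSC), 11 (OPC) and 8 (NFO), beside 9.4%, 5.86% and 3.35%. With OLIG2 peaks above a fold enrichment of 10, 8 members had a peak in OPCs, 6 in NFOs and 2 in both (6.42%, 12.6% and 2.73%). Within 5 kb of a TSS alone the counts were 7, 9 and 3 (9.98%, 17.4% and 4.18%). In both of these settings the members' NFO share was below that of protein-coding genes. With RIP sites held to an RPKM above 1 and a p-value under 0.01, 0 members had one. All of these settings use fewer peaks, a smaller window or a wider definition by construction. The states of 37 members were the same in all 3 stages with the filter of the Methods, of 13 with a fold enrichment above 5, of 47 within 1 kb of a TSS and of 45 with 1 TSS per gene. The depth of the libraries is unknown, so a missing peak does not show that a mark is absent.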

Other observations

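Auxiliary subunits of potassium channels were read in the same way. Of 20 such genes that are not members, H3K4me3 lay at 11, 12 and 9 in order of stage, and H3K27me3 at 4, 5 and 4. Kcnip4, which encodes a partner of Kv4 channels, had H3K27me3 in all 3 stages. Kcnip1, another such partner, and Kcnmb2, a BK channel subunit, had H3K27me3 in NSCs and were K4 only in NFOs. OLIG2 peaks lay at 4 of the 20 genes in OPCs and 9 in NFOs. Among 20 other pore genes, Kcnj8 and Kcnk6 had H3K27me3 in every stage.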
